A study of Rattus norvegicus with 6 samples.

Results

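The creatine kinases and phosphotransfer enzymes comprised 8 genes, chosen by their symbols. They were the cytosolic creatine kinases Ckm and Ckb, the mitochondrial creatine kinases Ckmt1 and Ckmt2, the creatine synthesis enzymes Gatm and Gamt, the creatine transporter Slc6a8 and the adenylate kinase Ak1. All 8 genes had a probe among the 19297 gene symbols on the array, and Gatm had 2, which gave 9 probes. A tested probe was present for 7 of the 8 genes and for 12685 symbols on the array. To be tested, a probe had to be detected well above background on every array of either group, and Ckmt2 did not meet this rule.

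Heart primordia, the tissue from which the first contracting heart tube forms, had been collected from Wistar rat embryos (written "Wister rat" in the labels) at E10, embryonic day 10. The pre-heartbeat group consisted of 3 samples of primordia whose centre was flat, taken as before the first contraction, and the post-heartbeat group of 3 samples of primordia whose centre was raised, taken as after it. No treatment or altered allele was stated for any sample, and the groups were defined by this shape and not by a recording of each heart. The study also gives the post-heartbeat embryos a higher, overlapping range of somites, the body segments of the embryo. Heartbeat and developmental stage therefore cannot be told apart between the groups. The samples were described as biological replicates, and the number of primordia and litters behind each array was not given in the sources used here.

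Creatine kinases move a phosphate group between ATP and creatine, so that phosphocreatine can hold energy close to where ATP is spent and return it within a contraction. In muscle the mitochondrial isozyme charges creatine beside the site of ATP synthesis and the cytosolic isozyme recharges ADP at the myofibril, where the muscle isozyme binds to the M-band of the sarcomere. Adenylate kinase works in parallel by turning ADP into ATP and AMP. Creatine itself is made by successive enzymes and is taken up from the blood by a transporter, and the embryonic heart is known for a shift from the brain isozyme towards the muscle isozyme as it matures.

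The sequences before the starts of Ckm, Ckb and Ckmt2 are shown because these isozymes were the creatine kinases with a higher mean signal after the heartbeat. RefSeq promoter entries of the GRCr8 build were present for 7 of the 8 genes and were searched over the 250 bases before the start on both strands. Capitals mark the motifs found. They are E-boxes, with the letters CANNTG, in Ckm and Ckmt2. In Ckb they are an M-CAT motif, CATTCC, read on the opposite strand, and a MEF2 site. Ckm lies on the plus strand of chromosome 1 (chr1:88189211-88189381), and the 79 bases that followed in its window were left out because they overlap the annotated gene. Ckb lies on the minus strand of chromosome 6 (chr6:136553465-136553714), and Ckmt2 on the minus strand of chromosome 2 (chr2:24845512-24845761).
Ckm: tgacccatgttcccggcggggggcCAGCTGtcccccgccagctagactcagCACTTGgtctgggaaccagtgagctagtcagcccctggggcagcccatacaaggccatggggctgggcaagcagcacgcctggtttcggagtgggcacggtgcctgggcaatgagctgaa
Ckb: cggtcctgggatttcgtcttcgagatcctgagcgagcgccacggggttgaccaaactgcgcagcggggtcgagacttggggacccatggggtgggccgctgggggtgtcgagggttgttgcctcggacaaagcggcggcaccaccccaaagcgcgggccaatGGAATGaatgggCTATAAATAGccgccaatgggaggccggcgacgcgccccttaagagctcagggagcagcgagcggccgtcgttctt
Ckmt2: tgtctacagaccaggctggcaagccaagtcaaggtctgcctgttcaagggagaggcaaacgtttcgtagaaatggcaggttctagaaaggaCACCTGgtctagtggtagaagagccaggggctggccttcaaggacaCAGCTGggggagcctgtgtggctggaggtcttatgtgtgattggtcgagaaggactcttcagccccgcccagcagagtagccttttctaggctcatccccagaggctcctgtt

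The window of Ckm held 3 E-boxes, 226, 199 and 75 bases before the start, the last of them in the stretch that was left out. Ckmt2 held 2 E-boxes, 159 and 113 bases before its start, and neither gene held a MEF2 site. Ckb held no E-box in this window, and its MEF2 site, 76 bases before the start, overlapped a TATA box with the letters TATAAA. E-boxes were also found in the windows of Slc6a8 and Gatm, in 4 of the 7 windows, and in 65.5% of 33469 rat promoter windows of the same length. The MEF2 site was in 1 of the 7 windows and in 2.96% of all windows, the M-CAT motif in 1 and in 12.1%, and the TATA box in 1 and in 12.9%. The windows of Gatm and Ckmt1 lay wholly inside the annotated genes, at 250 of 250 bases, so they do not precede the annotated gene. The hypoxia response core ACGTG was found in the window of Gatm alone among the 7 and in 16.6% of all windows. The GATA motif AGATAA was in 0 of the 7 and in 10.3% of all windows, and the CArG box in 0 and in 1.5%. The window of Ckb held 25 CG dinucleotides, against 6 in that of Ckm and 4 in that of Ckmt2, where the median of all windows was 5.

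The values below are log2 of the processed signal less the 75th percentile of the array. On this scale 0 is the signal at that percentile and 1 unit is a 2-fold change. Levels of different probes were compared only to choose the probe of a gene and in the sums of markers. The 75th percentile lay between 1146 and 1702 intensity units over the 6 arrays, and 0 spots were saturated. The arrays came from 2 slides. Slide 1 held pre-heartbeat 1 and post-heartbeat 1 and 2, and slide 2 held pre-heartbeat 2 and 3 and post-heartbeat 3. With the group in the model, 3148 of 19299 tested probes differed between the slides in limma (Benjamini-Hochberg adjusted p under 0.05). Differences within each slide and with slide as a block are therefore given beside each gene.

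Among the 7 tested genes, 6 had a higher mean after the heartbeat, and the median log2 fold change was 0.25, against a median of -0.033 and 8619 higher of all 19299 tested probes. In limma without a block, 0 of the 7 genes passed an adjusted p of 0.05, and 0.119% of all tested probes passed it as higher. At an unadjusted limma p under 0.05 in either direction, 3 of the 7 genes passed, Ak1, Ckb and Ckm, all higher, as did 1352 of all 19299 tested probes. How many of these probes were higher was not counted. With slide as a block, 2 of the 7 genes rose, Ak1 and Ckm, where 1.16% of all probes did. The study selected genes at least 1.5 fold higher with p under 0.05, unadjusted, by the Tukey HSD method. These thresholds, applied here to the tested probes, are called the study's selection below. As higher, it held 1 of the 7, Ak1, and 1.89% of all probes. After adjustment its test called 0 probes. The groups did not overlap for 4 of the 7 genes, Ak1, Ckb, Ckm and Gamt, all higher, as was found for 5.38% of all probes. The plot of each probe on the 6 arrays shows these separations and the spread within each group.

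**Figure D1:**
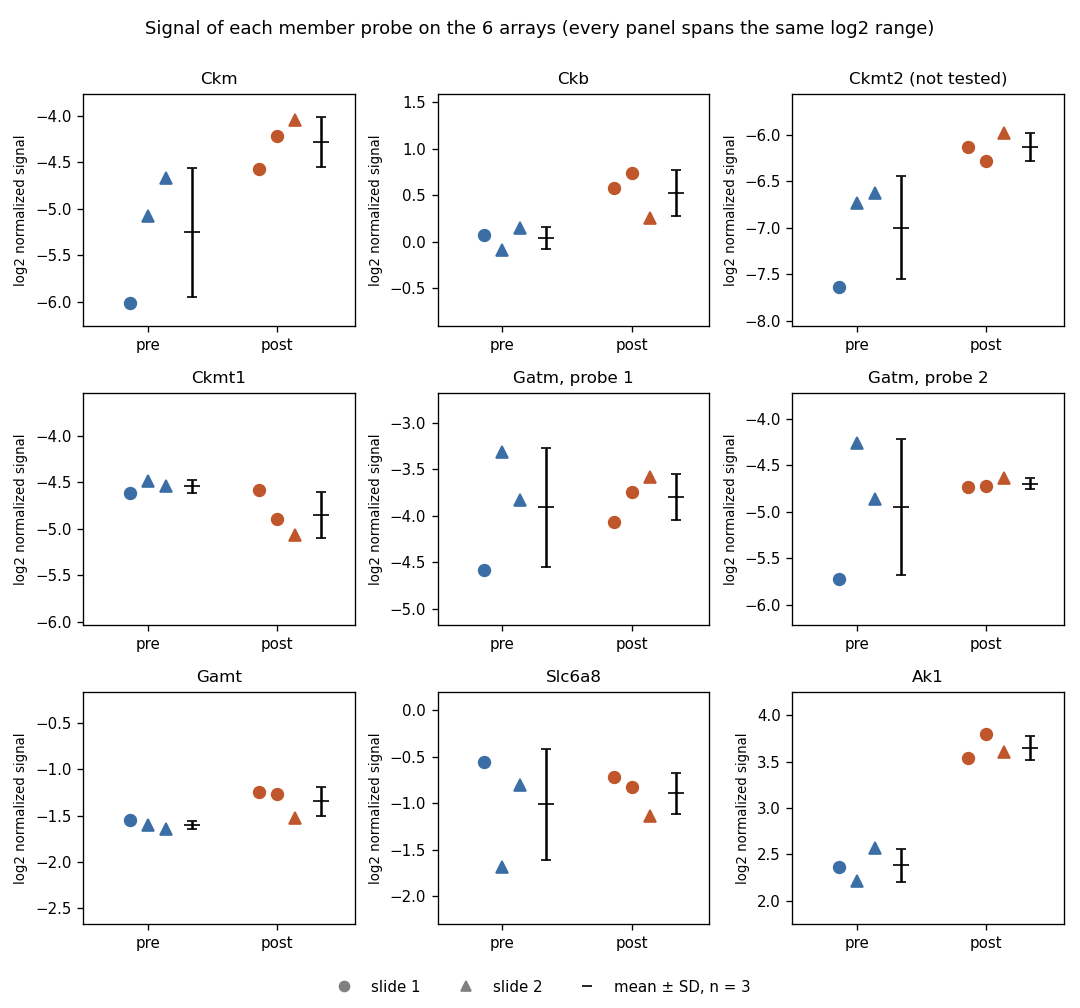
Log2 normalized signal (vertical axis) of the 9 member probes on the 3 pre-heartbeat and 3 post-heartbeat arrays. Points are arrays, circles lie on slide 1 and triangles on slide 2, the black bars are the mean ± SD (n = 3), and every panel spans the same range. Ak1 shows the clearest gap between the groups, from 2.57 to 3.54, and pre-heartbeat 1 lies lowest for Ckm, Ckmt2 and both Gatm probes.

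Ckm encodes the muscle isozyme, M-CK, which in adult muscle is the main cytosolic creatine kinase. Its probe (rn4 build, chr1:78772431-78772490, plus strand) gave -6.01, -5.08 and -4.67 in pre-heartbeat 1 to 3, and -4.57, -4.21 and -4.05 in post-heartbeat 1 to 3. All post-heartbeat arrays were above all pre-heartbeat arrays, with post-heartbeat 1 close to pre-heartbeat 3, and pre-heartbeat 1 was well below the others. The group means were -5.25 ± 0.69 and -4.28 ± 0.27 (SD, n = 3), which is a log2 fold change of 0.97 (SE 0.346, 95% confidence interval 0.16 to 1.79), or 1.96 fold, which did not pass limma without a block (adjusted p = 0.562). With slide as a block Ckm rose by 1.22 (SE 0.223, limma adjusted p = 0.0430). The difference was 1.62 within slide 1, whose only pre-heartbeat array was pre-heartbeat 1, and 0.82 within slide 2. The rise with slide as a block therefore rests in part on that low array. The exact permutation test over the arrays gave p = 0.1, two-sided, the smallest that 3 against 3 arrays allow.

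The signal of Ckm was close to background, with intensities from 26.2 to 103 units, and 1 of its 2 spots was well above background on pre-heartbeat 1. Its log2 fold change was 0.34 with the normexp background correction (limma adjusted p = 0.951) and 0.59 without pre-heartbeat 1, so the size of the difference depended on this array. The normexp correction was run with an offset of 50 units added to every signal. Such an offset by itself makes the log2 fold changes of probes as dim as Ckm smaller. The normexp value therefore cannot show how far the difference depended on the background. In bulk tissue, fewer cells of a type and less RNA per cell cannot be told apart, which holds for Ckm and for each gene below. The 3 genes whose profile over the 6 arrays was nearest to that of Ckm were Myadml2, Lrrc39 and Tmem38a, at a root mean square difference of 0.148, 0.185 and 0.200 (log2) after each profile was centred, among 15084 probes with a symbol.

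Ckb encodes the brain isozyme, B-CK, the cytosolic creatine kinase of the early embryo. Its probe (rn4, chr6:136452432-136452491, minus strand) gave 0.07, -0.09 and 0.14 before and 0.58, 0.74 and 0.26 after the heartbeat. The groups did not overlap, and post-heartbeat 3 was nearest to the pre-heartbeat arrays. The group means were 0.039 ± 0.119 and 0.525 ± 0.247 (SD, n = 3), which is a log2 fold change of 0.49 (SE 0.171, 95% confidence interval 0.08 to 0.89), or 1.40 fold, which did not pass (limma adjusted p = 0.553). With slide as a block it was 0.41 (adjusted p = 0.401), with 0.59 within slide 1 and 0.23 within slide 2. Over the other settings the log2 fold change lay between 0.38 and 0.62, higher after the heartbeat in each. Some of these settings, such as other filters, cannot change it.

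Ckmt2 encodes the sarcomeric mitochondrial isozyme, found in striated muscle. Its probe (rn4, chr2:22084356-22084415, minus strand) gave -7.64, -6.74 and -6.63 before and -6.13, -6.28 and -5.98 after the heartbeat. It was well above background on 0 of 3 pre-heartbeat arrays and on 2 of 3 post-heartbeat arrays, and post-heartbeat 1 was the post-heartbeat array without detection. Its level was measured above background on only 2 of the 6 arrays. The differences given for Ckmt2 are therefore of measured signals and leave the size of its change unknown. The measured means were -7.0 ± 0.55 and -6.13 ± 0.15 (SD, n = 3), a difference of 0.87 that did not pass in the fit without a filter (limma adjusted p = 0.644). The difference was 1.43 within slide 1 and 0.70 within slide 2, 0.06 with the normexp background correction and 0.55 without pre-heartbeat 1. The offset of 50 units in the normexp correction exceeds the processed signal of Ckmt2 on every array, which makes the normexp difference smaller.

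Ckmt1 encodes the ubiquitous mitochondrial isozyme, found in brain and other tissues outside striated muscle. Its probe (rn4, chr3:108163709-108163768, plus strand) gave -4.61, -4.48 and -4.54 before and -4.58, -4.89 and -5.07 after the heartbeat. It was the only tested member with a lower mean after the heartbeat, and the groups overlapped, since post-heartbeat 1 lay within the pre-heartbeat range. The log2 fold change was -0.30 (SE 0.166, 95% confidence interval -0.70 to 0.087) and did not pass (limma adjusted p = 0.866). It was -0.34 with slide as a block, -0.12 within slide 1 and -0.56 within slide 2.

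**Figure D2:**
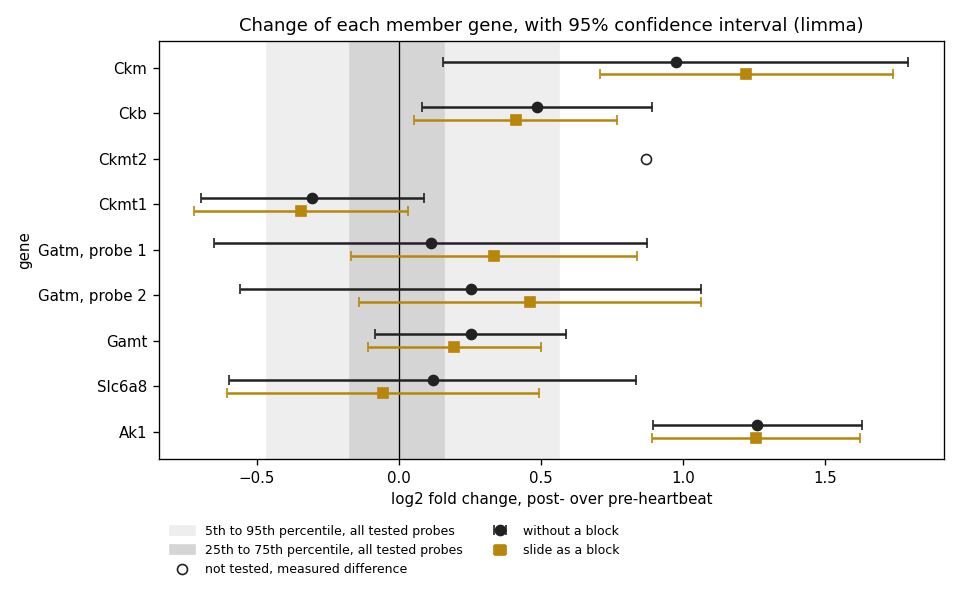
Log2 fold change of each member gene, post- over pre-heartbeat (horizontal axis), from limma without a block (black circles) and with slide as a block (gold squares), with 95% confidence intervals. The open circle is the measured difference of Ckmt2, which was not tested, and the grey bands are the 5th to 95th and the 25th to 75th percentile of all 19299 tested probes. Ak1 at 1.26 and Ckm at 0.97 lie above the 95th percentile, which was 0.56.

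Whether isozymes of the same reaction changed unequally was compared for 3 pairs, by the difference of their log2 signals on each array. Ckmt2 was not well above background on 4 of the 6 arrays, so both pairs that hold it compare measured signals only and leave the size of its change unknown. In these signals the difference of Ckmt2 between the groups was 1.17 above that of Ckmt1 (exact permutation p = 0.1, the smallest possible, and 0.3 after adjustment over the 3 pairs), and 0.25 above it with the normexp background correction. The change of Ckm exceeded that of Ckb by 0.49 (exact permutation p = 0.5, adjusted p = 0.7). This excess was 1.03 within slide 1, 0.59 within slide 2 and 0.81 with slide as a block, which the permutation test did not take into account. With the normexp correction the sign turned, to -0.11. The offset of 50 units in that correction makes the changes of probes near background, such as Ckm, Ckmt1 and Ckmt2, smaller, and that of Ckb less so. The measured differences of Ckm and Ckmt2, the isozymes of striated muscle, were 0.10 apart (exact permutation p = 0.7, adjusted p = 0.7).

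Gatm, arginine:glycine amidinotransferase, catalyses the first step of creatine synthesis, the formation of guanidinoacetate. The Gatm probe with the higher signal (rn4, chr3:109382662-109382721, minus strand, 10 spots) gave -4.58, -3.32 and -3.83 before and -4.07, -3.74 and -3.58 after the heartbeat. The second probe (chr3:109558049-109558108, minus strand, 2 spots) gave -5.72, -4.26 and -4.87 before and -4.74, -4.73 and -4.63 after. On both probes the pre-heartbeat arrays spread on either side of the post-heartbeat arrays, with pre-heartbeat 1 lowest and pre-heartbeat 2 highest. The log2 fold change was 0.11 (SE 0.322, 95% confidence interval -0.65 to 0.87, limma adjusted p = 0.928) and 0.25 (SE 0.344, adjusted p = 0.866). With slide as a block it was 0.33 (adjusted p = 0.822) for the first probe and 0.46 (adjusted p = 0.719) for the second. Within slide 1 it was 0.68 and 0.99, and within slide 2 it was -0.0086 and -0.067. For the first probe it turned to -0.23 without pre-heartbeat 1. The probes lay 175 kb apart in rn4, while the gene spans 25.2 kb in GRCr8.

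Gamt, guanidinoacetate methyltransferase, completes creatine synthesis. Its probe (rn4, chr7:10961950-10962009, plus strand) gave -1.55, -1.61 and -1.65 before and -1.25, -1.27 and -1.53 after the heartbeat. The groups did not overlap, with post-heartbeat 3 close to the pre-heartbeat arrays. The log2 fold change was 0.25 (SE 0.142, 95% confidence interval -0.08 to 0.59), or 1.19 fold, and did not pass (limma adjusted p = 0.866). It was 0.20 with slide as a block (adjusted p = 0.834), with 0.30 within slide 1 and 0.096 within slide 2.

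Slc6a8 encodes the sodium- and chloride-dependent transporter that brings creatine into the cell. Its probe (rn4, chrX:159580008-159580067, plus strand, 10 spots) gave -0.55, -1.69 and -0.80 before and -0.72, -0.83 and -1.14 after the heartbeat. The post-heartbeat arrays lay within the pre-heartbeat range, in which pre-heartbeat 2 was lowest. The log2 fold change was 0.12 (SE 0.303, 95% confidence interval -0.60 to 0.84, limma adjusted p = 0.915), -0.056 with slide as a block and -0.22 without pre-heartbeat 2. It was -0.22 within slide 1 and 0.11 within slide 2. The nearest profile to that of Slc6a8 was that of Hcfc1, at a root mean square difference of 0.042 (log2) over the 6 arrays, followed by Nup210 at 0.053 and Cpt1c at 0.063. Hcfc1 begins 294 kb beyond the end of Slc6a8 on chromosome X in GRCr8. The nearest profiles to that of Gatm were those of Toag1, RGD1564809 and Tmem136, at 0.045, 0.074 and 0.097.

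**Figure D3:**
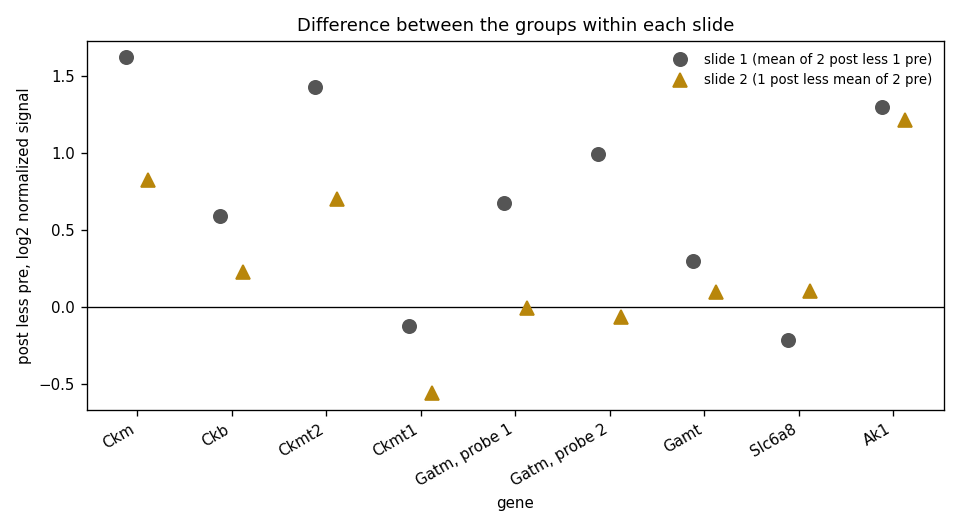
Difference between the groups, post- less pre-heartbeat, in log2 normalized signal (vertical axis), within slide 1 (circles, the mean of 2 post-heartbeat arrays less 1 pre-heartbeat array) and slide 2 (triangles, 1 post-heartbeat array less the mean of 2 pre-heartbeat arrays) for the 9 member probes. Ak1 differed by 1.30 and 1.21, nearly alike on both slides, whereas Ckm differed by 1.62 and 0.82, and Slc6a8 and both Gatm probes changed sign.

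Ak1 encodes the cytosolic adenylate kinase that is abundant in muscle and that converts a pair of ADP molecules into ATP and AMP. Its probe gave 2.37, 2.22 and 2.57 before and 3.54, 3.79 and 3.60 after the heartbeat. All post-heartbeat arrays were above all pre-heartbeat arrays, and the gap between the groups was wider than the spread within either. The group means were 2.38 ± 0.18 and 3.64 ± 0.13 (SD, n = 3), which is a log2 fold change of 1.26 (SE 0.156, 95% confidence interval 0.89 to 1.63), or 2.40 fold. Without a block it lay just short of the threshold (limma adjusted p = 0.0518), and the exact permutation test gave the smallest possible p of 0.1. With slide as a block it rose by 1.26 (adjusted p = 0.0151), with 1.30 within slide 1 and 1.21 within slide 2.

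The rise of Ak1 was the 101st largest of 19299 tested probes, and 0.518% of the probes had a larger one. Its log2 fold change lay between 1.18 and 1.35 over 18 other settings, some of which, such as other filters, cannot change it. Its limma adjusted p lay between 0.0151 and 0.298 and passed the threshold in 7 of them. It did not pass when any single array was left out (adjusted p from 0.116 to 0.298). The nearest profiles to that of Ak1 over the 6 arrays were those of Eno3, the muscle enolase of glycolysis, at 0.10, Perp, a desmosomal membrane protein, at 0.107, and Ampd1, the muscle AMP deaminase, at 0.130. The array annotation places the Ak1 probe on chromosome 2 of rn4 (chr2:19822463-19822522, plus strand), whereas RefSeq places the gene on chromosome 3 of GRCr8 (chr3:36310113-36320760). The chromosomes agreed for the other 7 genes, and whether the Ak1 probe also detects another transcript was not tested.

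The spread within the pre-heartbeat group differed between the members. Pre-heartbeat 1 was the lowest array of its group for Ckm, Ckmt2, Ckmt1 and both Gatm probes, and the highest for Slc6a8 and Gamt. It was the only pre-heartbeat array on slide 1, so within its group its position cannot be told apart from the slide. Among post-heartbeat arrays, both on slide 1 lay below the array on slide 2 for Ckm, Ckmt2 and both Gatm probes. For Slc6a8, Gamt and Ckmt1 they lay above it. How much of the position of pre-heartbeat 1 belongs to the slide was not tested. For Ckb, Gamt, Ak1 and Ckmt1 the SD of the pre-heartbeat arrays was 0.119, 0.047, 0.18 and 0.067.

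Related enzymes were described by lists of genes. Of the other adenylate kinases, 4 of 5 on the array were tested, 1 was higher and 3 lower (median log2 fold change -0.13), and 0 passed limma in either fit. Ak8, an adenylate kinase linked to cilia, was lower (log2 fold change -0.68, limma adjusted p = 0.455). It met the fold and p thresholds of the study's selection as lower, as did 1.15% of all probes. The study itself selected only higher genes. The nucleoside phosphate kinases (8 tested, 2 higher, 6 lower, median -0.098) and the adenine nucleotide carriers and mitochondrial channels (6 tested, 3 higher, 3 lower, median -0.0087) held 0 genes past limma in either fit and 0 in the study's selection. For all probes, 0.0207% passed limma as lower without a block and 0.461% with slide as a block.

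The AMP and purine nucleotide cycle, which deaminates the AMP made by adenylate kinase and rebuilds it, had 7 tested genes. Of these, 6 were higher and 1 lower (median log2 fold change 0.37), and 1 passed limma without a block and 2 with slide as a block. Ampd1, the muscle AMP deaminase, rose by 1.33 (SE 0.154, limma adjusted p = 0.0455, and 0.00994 with slide as a block). Adssl1, the muscle adenylosuccinate synthase of the next step, rose with slide as a block (log2 fold change 1.36, limma adjusted p = 0.0237) and had an adjusted p of 0.0823 without it. Ampd1 and Adssl1 were also in the study's selection.

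Of the subunits of AMP-activated protein kinase, which senses AMP, 6 were tested, 5 higher and 1 lower, with a median of 0.081. Prkag2, the AMP-binding subunit gamma-2, was 1 of 6 that rose with slide as a block (log2 fold change 0.90, limma adjusted p = 0.0262), and its adjusted p was 0.145 without it. The list of M-band and thick filament partners, where M-CK is anchored in muscle, had 6 genes on the array. Of these, Myom2 was not well above background on any array and was not tested. The 5 tested genes were all higher, with a median of 0.87. With slide as a block 4 of them rose, and 0 passed without it. They were the M-band protein Myom1 (1.001, adjusted p = 0.0179), the ubiquitin ligases Trim63 (1.30, adjusted p = 0.0151) and Trim55 (1.08, adjusted p = 0.0218), and Cmya5 (1.01, adjusted p = 0.0235), all from limma. Fhl2, a scaffold protein that binds M-CK, had an adjusted p of 0.0788 in that fit and was, like the other 4, in the study's selection.

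**Figure D4:**
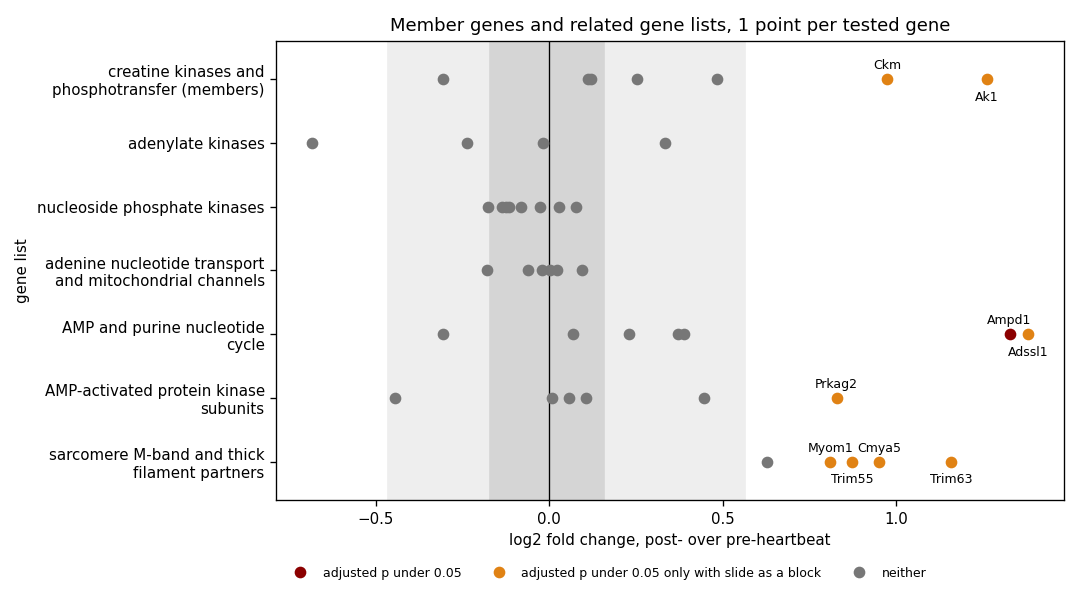
Log2 fold change, post- over pre-heartbeat (horizontal axis), of the 7 tested members and of the tested genes of 6 related lists (vertical axis), 1 point per gene. Dark red marks an adjusted p under 0.05 in limma without a block, orange only with slide as a block, and the grey bands are the 5th to 95th and the 25th to 75th percentile of all tested probes. Ampd1 at 1.33 is the only dark red point, and the other adenylate kinases lie between -0.68 and 0.33 while Ak1 lies at 1.26.

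Markers of muscle were higher after the heartbeat. All 14 of 14 cardiac muscle markers had a tested probe and a higher mean after the heartbeat (median log2 fold change 0.82), and 3 passed limma without a block, Myl2, Tnni3 and Nppa, and 7 with slide as a block. Their summed signal, in units of the 75th percentile of the array, was between 406 and 685 before and between 762 and 904 after the heartbeat. Actc1, Tnnt2 and Myl7 (log2 fold change 0.41, 0.28 and 0.61) made up most of this sum. None of these passed limma in either fit. All 4 smooth muscle markers were higher, 0 of them past limma without a block and 4 with it, from a summed signal of 3.25 to 4.16 before to 6.60 to 8.41 after. Of 5 neural ectoderm markers 2 were tested, and Hes5 and Six3 were not well above background on any array. Otx2 fell by 1.56 (limma adjusted p = 0.0199) and made up most of their sum, which was 6.36 to 7.27 before and 2.43 to 2.95 after, while Sox2 differed by -0.21 (adjusted p = 0.897). No marker of the endothelial, yolk sac endoderm, definitive endoderm or paraxial mesoderm lists passed limma in either fit. Sums of endothelial markers (6 of 6 tested) went from 15.5 to 16.6 before to 10.73 to 12.5 after, and yolk sac endoderm markers (6 of 6 tested) from 50.1 to 52.8 before to 31.5 to 42.0 after. Kdr (log2 fold change -0.55) made up most of the endothelial sum, and Ttr (-0.58) most of the yolk sac endoderm sum. In each of these lists 5 genes were lower and 1 was higher. For definitive endoderm (3 of 4 tested) the sums were 1.11 to 1.34 and 0.99 to 1.15, for paraxial mesoderm (3 of 6 tested) 21.4 to 23.7 and 24.9 to 26.1, and for erythroid genes (6 of 9 tested, with Hbe1, Gata1 and Slc4a1 not well above background) 2.24 to 4.11 and 3.46 to 5.98, where Epor passed with slide as a block (adjusted p = 0.0397). The part of the cells behind these markers in the values of Ak1, Ckm, Ckmt2 and Ckb was not tested.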

How the data were processed

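Heart primordia of 3 pre-heartbeat and 3 post-heartbeat samples were measured on 1-color Agilent rat arrays. RNA was extracted from each sample, labeled with cyanine 3 from 10 ng of total RNA and, per the labels, quantified with Agilent Feature Extraction 10.7.3.1. The intensity used is the background-subtracted processed signal per spot, which the authors deposited without scaling the arrays to each other. A table of linear ratios, which the authors deposited after a 75th percentile shift and a baseline transformation per probe, served as an alternative after taking log2.

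Control spots and spots flagged as outliers were left out, log2 signals were shifted by the 75th percentile of all spots other than controls, and spots were averaged within probes. A probe counted as well above background on an array if at least 0.5 of its remaining spots were. Probes so detected on all 3 arrays of at least 1 group were tested, 19299 of 30367. Groups were compared with limma 3.58.1 in R 4.3.3, with Benjamini-Hochberg adjustment over all tested probes and a threshold of 0.05, and single values also by exact permutation over the 20 splits of the arrays. Where a gene had more than 1 probe, the one of highest mean signal stands for it. The script was tested on simulated data.

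The genes named are the 8 members with all their probes, the genes of related lists past limma with or without the slide block or in the methods' selection, and the 3 nearest profiles of members that spanned over 1 log2 unit and were well above background on all arrays. The members and lists were chosen with earlier results of these data known. The rule for several spots was chosen after the data were seen, among variants under which the adjusted p of Ak1 fell on either side of 0.05. The comparison was repeated with a block for the slide or for the replicate number, normexp (offset 50), quantile normalization, other filters and percentiles, the authors' ratios, limma with a trend, the methods' test, the mean of a gene's probes and leaving out each array. The slide was read from the barcode of each array. Probe positions come from the array's rn4 annotation, and RefSeq names and promoters are of GRCr8. Precision is limited by the number of arrays, and p-values measure the spread between these samples.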

Additional observations from a re-analysis of the deposited data

How the results depend on the processing

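Directions of the log2 fold change of Ckm, Ckb, Ckmt1, Gamt and Ak1 were kept in all 18 alternatives. That of the measured difference of Ckmt2 was kept in the 12 that gave it a value. For these genes, each with 1 probe, the replicate block, other filters, the limma trend and the mean of a gene's probes cannot change the value. In those settings the direction was therefore fixed. Slc6a8 reversed with slide as a block (-0.056) and without pre-heartbeat 2 (-0.22), and Gatm without pre-heartbeat 1 (-0.23); with an array left out they ranged from -0.22 to 0.35 and from -0.23 to 0.41. Ak1 passed the threshold in 7 alternatives, with a replicate block (adjusted p = 0.0341), a slide block (0.0151), normexp (0.0177), a filter on all arrays (0.0417), a limma trend (0.0230), the mean of a gene's probes (0.0289) and every spot well above background (0.0469), and Ckm in 1, the slide block (0.0430). The last of these filters and a percentile without outlier spots, which gave Ak1 an adjusted p of 0.0501, were chosen after the data were seen. Member genes called therefore numbered 1 with the replicate block, normexp, the filter on all arrays, the trend, every spot, the mean of probes and the methods' selection, 2 with the slide block, and 0 in the others, including each array left out.

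Of all tested probes, 27 passed limma without a block. Counts that moved were 144 with the replicate block, 312 with the slide block, 50 with normexp and 14 with quantile normalization. They were 1 without a filter, 13 with the authors' ratios and 45 with the trend. The methods' selection, taken in both directions, held 587, and its test after adjustment 0. With any 1 array left out the count was between 0 and 2. Deviations of the pre- and post-heartbeat arrays with the same replicate number correlated at 0.648, -0.277 and 0.494. With the same or a different number, the correlation was positive for arrays on the same slide and negative for the others. These correlations therefore cannot decide whether the shared replicate numbers pair the arrays, and pairing apart from the slide was not tested.

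The excess of Ckm over Ckb was -0.11 with normexp and between 0.094 and 0.73 with an array left out. The excess of Ckm over Ckmt2 was -0.028 with quantile normalization and between -0.0045 and 0.25 with an array left out, and that of Ckmt2 over Ckmt1 lay between 0.89 and 1.36. Signals of Ckm and Ckmt2 were close to background, which limits how well the size of their differences is known. The offset of 50 units under normexp makes the differences of probes this dim smaller. What the background estimate itself changed was not tested.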
